A study of Rattus norvegicus with 174 samples.

Results

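The proteasome genes of the rat array were taken by symbol. A gene was a member where its platform symbol starts with Psma, Psmb, Psmc, Psmd, Psme, Psmf or Psmg and at least 1 probe set lists that symbol alone. This gave 44 of the 13438 genes measured in the series. A single probe set stood for 34 of them, and of the several probe sets of the other 10 the brightest over all arrays was taken. By role they were 7 alpha subunits (Psma1 to Psma7) and 6 constitutive beta subunits (Psmb1, Psmb2, Psmb3, Psmb4, Psmb5, Psmb7) of the 20S core, and the 3 immunoproteasome beta subunits Psmb8, Psmb9 and Psmb10. The 19S regulator gave 6 ATPases (Psmc1 to Psmc6), 11 non-ATPase subunits and 3 assembly chaperones of its base (Psmd5, Psmd9, Psmd10). Beside these stood the activators Psme1 and Psme4, the inhibitor Psmf1 and the 20S assembly chaperones Psmg1, Psmg2 and Psmg4. Psmc3ip and Psme3ip1 carry the same prefixes but are not proteasome subunits. Psma3l, Psmb6, Psmb6l1, Psme2, Psme3 and Psmg3 are listed only on probe sets shared with another gene and were not analysed here.

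RNA came from adult male Sprague-Dawley rats, an outbred stock, that breathed phosphine, a toxic fumigant gas, or air in whole-body chambers. The exposed rats breathed 660 ppm over 32.2 min, and the air rats 0 ppm over the same time. For the exposed rats the product of concentration and time, 21252 ppm x min, was 0.91 of the median lethal one. Brain, heart, kidney, liver and lung were frozen 1, 3, 6 or 24 h later, after ketamine and xylazine had been given to every animal, and blood was drawn from the heart. Groups held 4 rats, except 2 air rats at 6 h in the solid tissues, and in blood 5 exposed rats and 1 air rat at 6 h and 2 exposed rats with no air rat at 24 h. Brain, heart, kidney, liver and lung came from the same 30 rats (3 other rats gave blood only), so findings in different tissues are not from separate animals.

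The proteasome is the barrel-shaped protease that breaks down ubiquitin-tagged proteins in all nucleated cells. The 20S core holds the active sites inside rings of alpha and beta subunits, and the 19S regulator binds the ubiquitin chain, unfolds the protein by ATP hydrolysis and opens the alpha ring. Interferon exchanges the catalytic beta subunits for Psmb8, Psmb9 and Psmb10, which form the immunoproteasome and change the peptides offered on MHC class I. Most proteasome genes can be raised together by the transcription factor Nfe2l1 when the proteasome is overloaded.

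Log2 signals are given per array. A change is the exposed minus the air mean on that scale, ± its SE in a limma fit over all arrays of the tissue. A gene was called at a Benjamini-Hochberg adjusted p (padj) under 0.05 over all 13438 genes. Each tissue carried its own markers at a high level, with medians of 11.06 (brain markers), 12.85 (cardiac muscle), 10.68 (kidney tubule), 12.97 (hepatocytes), 12.67 (lung epithelium) and 11.30 (erythroid genes in blood). On 11 solid-tissue arrays, 9 exposed and 2 air, the markers of another organ or of skeletal muscle stood at least 4 log2 above the tissue's median. The exposed lung of Rat729 and the air lung of Rat733, both at 3 h, were among them. The 3' minus 5' signal of control transcripts, higher in less intact RNA, was higher in exposed than in air rats by 0.04 in lung, 0.04 in blood and 0.17 in liver at 3 h (exact permutation test, two-sided, padj = 0.928, 0.928 and 0.657). The difference was -0.15 in liver at 1 h and -0.155 in brain at 3 h (exact permutation test, p = 0.0286 for each, the smallest it allows, padj = 0.329). In kidney at 6 h it was 0.11 (exact permutation test, p = 0.0667, the smallest allowed there, padj = 0.394). In heart at 3 h it was 0.19 (exact permutation test, p = 0.0857, padj = 0.394).

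In the air rats all 44 members differed between the 6 tissues (limma's moderated F over 14 arrays per solid tissue and 9 of blood, against 99.8% of all genes), but most of the proteasome differed little among the solid tissues. The range of the 5 solid-tissue means had a median of 0.78 log2 over the members, against 1.67 over all genes and 1.54 over the 2074 genes at least as bright as the lower quartile of the members. By role the median range was 0.55 for alpha subunits, 0.46 for constitutive beta subunits, 0.67 for the ATPases and 0.74 for the non-ATPase subunits. It was 4.11 for the immunoproteasome subunits, 3.13 for the activators and 1.51 for the inhibitor. Within each of these groups the genes are different probe sets, so each gene was set against itself only.

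Psmb8, a catalytic subunit of the immunoproteasome, stood at 4.70 ± 0.37 (SD, n = 14) in brain, 6.995 ± 0.23 in kidney, 7.44 ± 0.35 in heart, 9.10 ± 0.33 in lung, 9.26 ± 0.28 (n = 9) in blood and 9.29 ± 0.19 in liver. Its order was liver, blood, lung, heart, kidney and brain. Liver and blood (padj = 0.817) and blood and lung (padj = 0.222) did not differ beyond their spread, and each of the other neighbours did. The highest and the lowest tissue were 4.59 log2 apart. No detection call was used, so how far the low brain signal lies above background is unknown.

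Psmb9, another of the inducible catalytic subunits, was 5.13 ± 0.29 in brain, 7.34 ± 0.15 in kidney, 7.96 ± 0.26 in heart, 8.96 ± 0.37 in blood, 9.19 ± 0.22 in liver and 9.23 ± 0.20 in lung. Lung and liver did not differ (padj = 0.712), while liver was above blood by 0.24 (padj = 0.0337). Under array median centring and under quantile normalization over all tissues, blood and not liver or lung was highest for Psmb8 and Psmb9, and brain stayed lowest for both. Psmb10, the third of the inducible subunits, ran from 6.26 ± 0.17 in kidney and 6.43 ± 0.18 in brain, which did not differ (padj = 0.102), over 6.87 ± 0.20 in heart, 7.53 ± 0.21 in liver and 7.70 ± 0.21 in lung to 8.13 ± 0.47 in blood. Lung and liver did not differ for Psmb10 either (padj = 0.0915), and kidney was its lowest tissue under each scaling. The general leukocyte markers (Ptprc, Coro1a, Laptm5, Cd53, Cd48) had a median level of 6.46 in brain, 6.98 in kidney, 7.03 in liver, 7.24 in heart, 9.77 in lung and 10.03 in blood, and the macrophage markers 5.45 in blood, 5.94 in brain, 6.08 in kidney, 7.01 in heart, 7.46 in lung and 8.39 in liver. The part of these cells in the tissue pattern was not tested, and in such bulk RNA fewer cells of a type and less RNA per cell cannot be told apart.

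**Figure D1:**
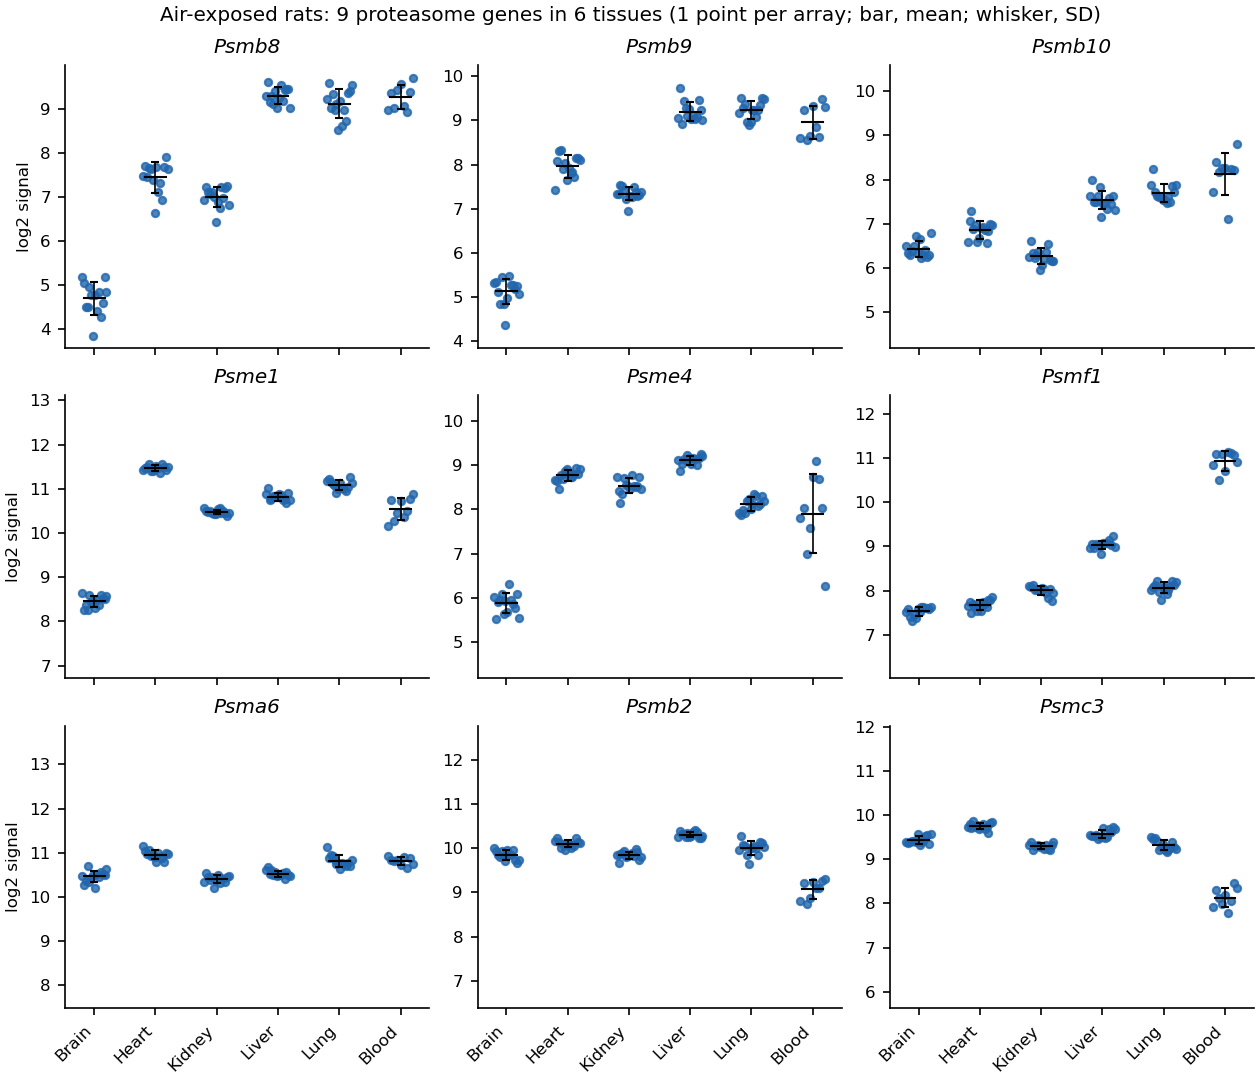
Log2 signal in air rats (y axis, each panel spanning the same number of log2 units) by tissue (x axis). Panels show the 3 immunoproteasome subunits, 2 activators, the inhibitor, the core subunits Psma6 and Psmb2, and the regulator ATPase Psmc3. Points are arrays, bars the mean and whiskers the SD. Psmb8 climbs from 4.70 in brain to 9.29 in liver and Psme1 is lowest in brain at 8.45, while Psma6 stays between 10.40 and 10.95 in all 6 tissues.

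Psme1, a subunit of the interferon-inducible 11S cap that opens the core without ubiquitin, was lowest in brain at 8.45 ± 0.13 and highest in heart at 11.47 ± 0.06. Between them lay kidney at 10.48 ± 0.05, blood at 10.54 ± 0.25, liver at 10.82 ± 0.09 and lung at 11.08 ± 0.11, of which only blood and kidney did not differ (padj = 0.31). Psme4, the activator linked to breakdown of acetylated histones, was 5.88 ± 0.23 in brain, 7.91 ± 0.89 in blood, 8.11 ± 0.16 in lung, 8.53 ± 0.17 in kidney, 8.77 ± 0.13 in heart and 9.11 ± 0.10 in liver. For it blood and lung (padj = 0.149) and kidney and heart (padj = 0.0794) did not differ. Psmf1, which inhibits the core in the test tube, stood apart in blood at 10.94 ± 0.22, against 9.04 ± 0.09 in liver, 8.06 ± 0.12 in lung, 8.002 ± 0.10 in kidney, 7.68 ± 0.11 in heart and 7.53 ± 0.11 in brain. Lung and kidney were its only neighbours that did not differ (padj = 0.301). Brain was lowest for Psme1, Psme4 and Psmf1 under each of the 3 scalings.

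Among all 44 members, heart held the highest solid-tissue mean for 18 members, liver for 13, brain for 8, lung for 4 and kidney for 1. Lung was lowest among the solid tissues for 14 members, and for 24 with array median centring. The ATPase Psmc5 was highest in brain (9.43 ± 0.19) and heart (9.22 ± 0.09) and lowest of the solid tissues in lung (8.27 ± 0.05). The ATPase Psmc6 was 8.997 ± 0.21 in liver and 8.16 ± 0.21 in kidney. Psmd1 of the base and Psmd12 of the lid were both highest in heart, at 8.69 ± 0.14 and 8.84 ± 0.17, and lowest of the solid tissues in lung, at 7.57 ± 0.13 and 7.74 ± 0.18. Psmb5, the constitutive counterpart of Psmb8, was highest in heart (10.59 ± 0.10) and lowest of the solid tissues in lung (9.82 ± 0.11), and Psmb2 was highest in liver (10.31 ± 0.06). Of the alpha subunits Psma1 was highest in heart (9.86 ± 0.11) and Psma3 in brain (8.23 ± 0.14). Of the assembly chaperones, Psmd5, Psmg1 and Psmd9 had their highest solid-tissue mean in liver, with Psmd5 at 8.90 ± 0.11 there against 7.94 ± 0.08 in heart, Psmg1 at 9.26 ± 0.14 against 8.07 ± 0.06 in lung, and Psmd9 at 8.18 ± 0.16 against 6.80 ± 0.13 in lung. Psmg2 was highest in lung (7.85 ± 0.13) and lowest of the solid tissues in brain (7.002 ± 0.09). Psmc3ip, a meiotic recombination factor, was highest in heart (6.64 ± 0.16) and Psme3ip1 in kidney (8.14 ± 0.11). Blood was the lowest of the 6 tissues for 33 members, but for 21 with array median centring and 22 with quantile normalization over all tissues.

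The 3 immunoproteasome genes also varied together between rats of a group. After each value was set against the mean of its group, the median pairwise Pearson r of Psmb8, Psmb9 and Psmb10 was 0.77 in liver, 0.69 in heart, 0.69 in kidney, 0.59 in blood and 0.54 in lung, but -0.01 in brain. Exposed Rat742 at 24 h had the highest Psmb9 of its group in each solid tissue, such as 9.93 in liver against 8.91 to 8.95 in the other 3 exposed rats and 10.45 in lung against 8.89 to 9.01. Without it the median r was 0.57 in liver, 0.70 in heart, 0.64 in kidney, 0.58 in blood and 0.25 in lung. For genes at least as bright as the lower quartile of the members it lay between 0.01 (lung) and 0.16 (blood). For the 30 constitutive core and regulator genes it lay between 0.10 (kidney) and 0.27 (heart). Between the immunoproteasome and these genes it ran from -0.21 in heart to 0.37 in blood. Leaving out Rat742 was chosen after seeing the data. These are descriptions over 30 arrays per solid tissue and 23 of blood, and the genes share arrays and normalization. Psmb8 and Psmb9 lie close together on chromosome 20 and Psmb10 lies on chromosome 19.

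The bases before the start of these 3 genes are shown with a search for the interferon-stimulated response element, through which interferon can act on genes. They are from the RefSeq promoter table, build GRCr8, which held 40 of the 44 members (Psma7, Psmd6, Psmd12 and Psmd14 have no entry). Capitals mark matches to the core of that element, paired GAAA blocks with 2 bases between them, on either strand. Psmb10 is chr19:50743293-50743412 and Psmb8 chr20:4657026-4657151, both on the minus strand, and Psmb9 is chr20:4668880-4668999 on the plus strand. Each shows the 120 bases before the start, and Psmb8 the first 6 bases after it as well.
Psmb10: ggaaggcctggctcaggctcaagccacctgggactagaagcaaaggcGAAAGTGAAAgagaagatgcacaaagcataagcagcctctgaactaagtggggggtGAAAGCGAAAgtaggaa
Psmb8: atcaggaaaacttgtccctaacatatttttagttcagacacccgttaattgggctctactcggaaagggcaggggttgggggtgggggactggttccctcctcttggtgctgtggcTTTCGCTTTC
Psmb9: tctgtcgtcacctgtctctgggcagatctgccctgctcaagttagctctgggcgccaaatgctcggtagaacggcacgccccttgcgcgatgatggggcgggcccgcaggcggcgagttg
Psmb10 held 2 matches and Psmb8 held 1, which spans the start and reads on the minus strand of the gene. Psmb9 held none in these bases or in the rest of its 300-base window. Over all windows of 250 bases before to 50 after the start, the motif was found in 6 of 40 members (15%) and in 3.92% of the 33469 promoters of the table. The STAT site TTCNNNGAA was found in 4 of 40 (10%, against 8.87%). A match says only that these letters are present.

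Exposure changed few proteasome genes. Over 23 comparisons of a tissue and time, 11 of 1012 pairs of a member and a comparison were called (1.09%), against 1.92% over all genes and 2.40% over the genes as bright as the members. They were 10 different genes in 4 comparisons, lung at 1 and 3 h, liver at 3 h and blood at 3 h, with 6 called higher and 5 lower. The array data also bound most of the changes that were not called. In the 20 solid-tissue comparisons, 836 of 880 changes had a 95% interval within 1.5-fold of no change in either direction (95%, against 73.3% over all genes and 90.9% over the bright genes). The members' median change lay between -0.03 and 0.06, and single changes between -0.49 (Psmd10, liver 6 h) and 0.54 (Psmd9, liver 6 h).

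**Figure D2:**
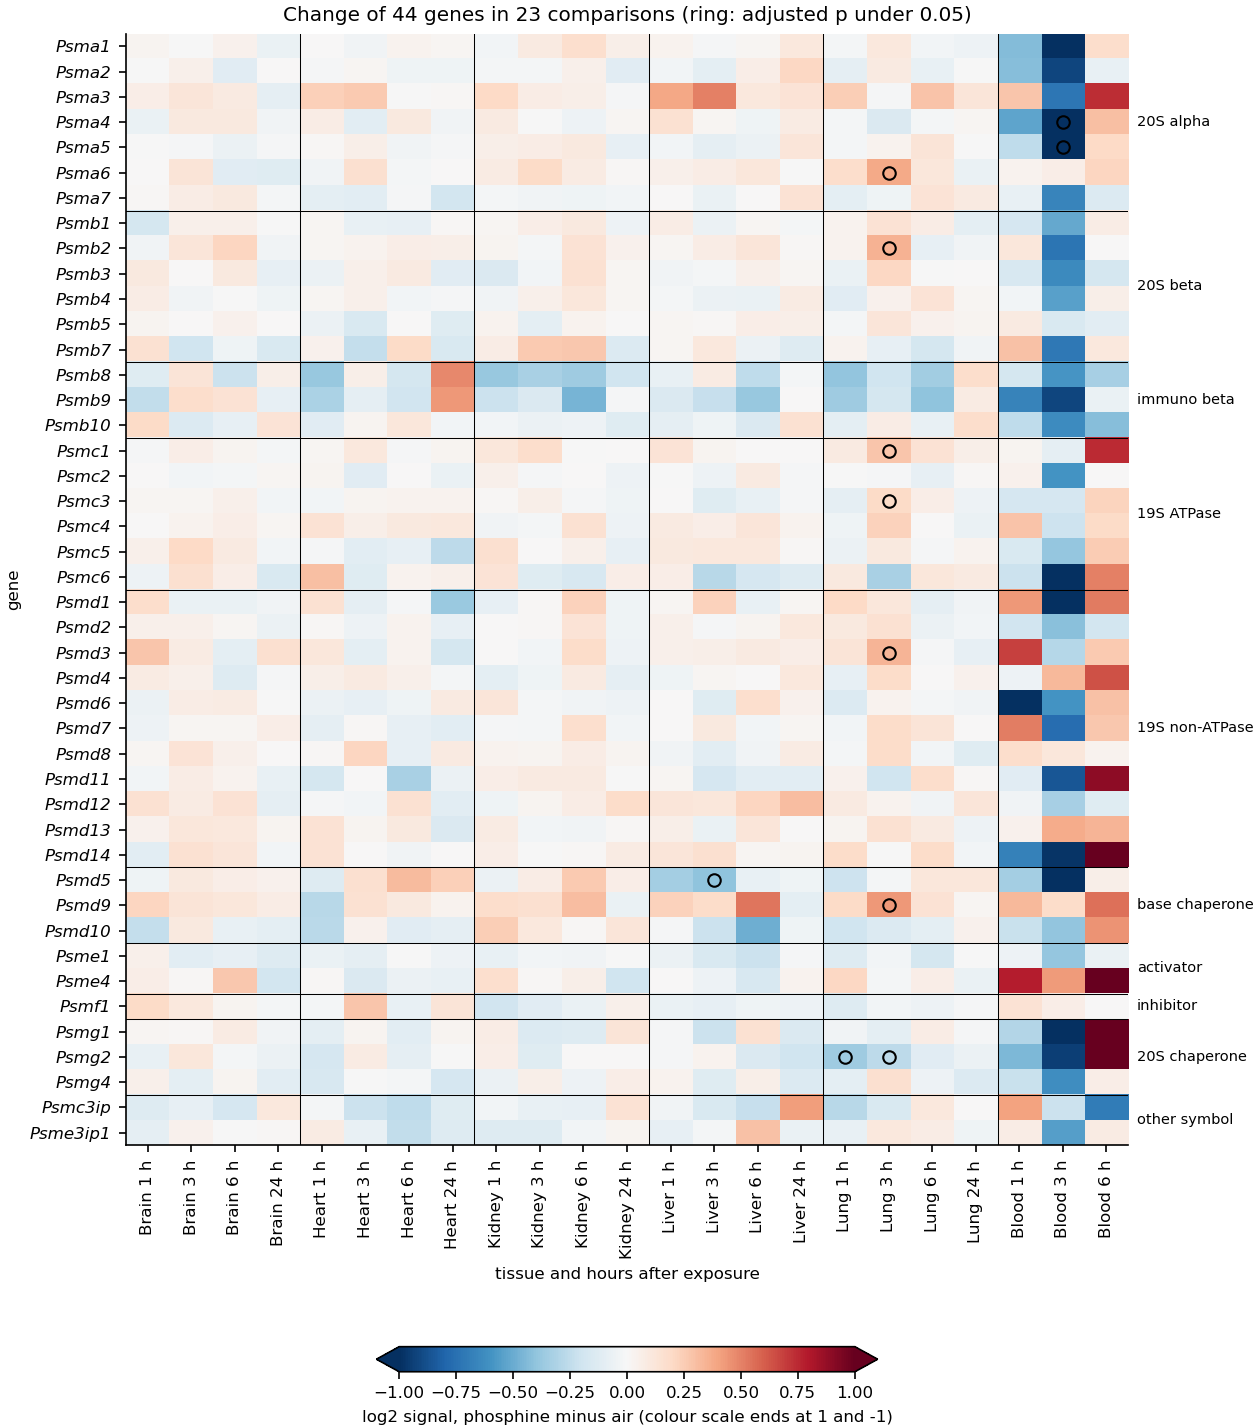
Colour gives log2 phosphine minus air for the 44 genes (rows, by role) in the 23 comparisons (columns), with the scale ending at -1 and 1; rings mark calls at padj under 0.05. The 11 rings sit in lung at 1 and 3 h, liver at 3 h and blood at 3 h, and the blood columns hold the strongest colours.

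Lung at 3 h held 7 of the 11 calls. Limma called 7 of 44 members there (15.9%), against 11.6% of all genes, with 6 higher (5.84% of all genes) and 1 lower (5.76% of all genes). At an unadjusted p under 0.05 stood 14 members (31.8%, against 25.3%), and in 12 members the groups did not overlap (27.3%, against 18.3%). Of all members 26 were higher (59.1%, against 52.2% of all genes) and 18 lower, with a median of 0.06 against 0.01 for all genes. The genes that rose came from different layers of the complex: the alpha subunit Psma6, the beta subunit Psmb2, the ATPases Psmc1 and Psmc3, the lid subunit Psmd3 and the base chaperone Psmd9.

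Psma6 was 11.01, 11.09, 11.29 and 11.12 in the 4 exposed lungs and 10.83, 10.75, 10.78 and 10.64 in the 4 air lungs. All exposed lungs lay above all air lungs, a rise of 0.38 ± 0.08 or 1.30-fold (95% interval 0.22 to 0.54, padj = 0.0022). It was called in 14 of 14 alternative settings and left-out rats, with padj up to 0.024. Psmb2 was 10.21, 10.18, 10.30 and 10.19 in exposed and 9.86, 9.64, 10.00 and 10.00 in air lungs, a rise of 0.35 ± 0.09 (padj = 0.015, called in 10 of 14 alternatives). The exposed values were close together, and the lowest air value was that of Rat733. Psmd9 was 7.0, 7.04, 7.41 and 7.27 in exposed and 6.77, 6.65, 6.87 and 6.70 in air lungs, a rise of 0.43 ± 0.12 (padj = 0.022, called in 10 of 14). Its groups did not overlap, and its second, dim probe set (mean 3.81) changed by 0.16 ± 0.09, which did not pass.

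Psmd3 (0.34 ± 0.10, padj = 0.029, called in 9 of 14 alternatives), Psmc1 (0.28 ± 0.09, padj = 0.041, 4 of 14) and Psmc3 (0.19 ± 0.06, padj = 0.037, 4 of 14) rose as well, with overlapping groups for Psmd3. Psmg2, a chaperone that pairs with Psmg1 to build the alpha ring, fell by 0.26 ± 0.08 (padj = 0.034, 7 of 14). The number called fell from 7 to 2 with only the 2 groups in the fit, and to 3 without the arrays that carried another organ's markers. It was 1 without exposed Rat730, 1 without air Rat733, 3 without air Rat739 and 4 without air Rat732. With quantile normalization within the tissue, and likewise with array median centring, 6 were called, 4 higher and 2 lower.

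Cell markers moved in the same lungs. Of 8 macrophage markers 5 were called higher, with a mean level of 7.53 to 7.61 in exposed and 7.07 to 7.39 in air lungs, and of 5 neutrophil markers 3 were higher (5.99 to 6.66 against 5.07 to 5.65). The general leukocyte markers lay at 9.51 to 9.58 against 9.71 to 9.86, with Cd53 called lower. Of the 3 B cell markers Bank1 was called lower (-2.03), and of the 8 T and NK cell markers Cd8a (-0.76). Of the 5 endothelial markers Kdr (-0.94) and Emcn (-0.71) were called lower and Cldn5 (0.63) higher. Of the 6 lung epithelium markers Sftpb (0.33) and Sftpa1 (0.28) were called higher. The part of these cells in the proteasome changes was not tested.

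The promoters of Psma6 and Psmb2, the lung risers with the smallest padj, are shown next, again as the 120 bases before the start in GRCr8 from RefSeq. Psma6 is chr6:78514227-78514346 and Psmb2 chr5:144254938-144255057, both on the plus strand. Capitals mark matches to the antioxidant response element core TGACNNNGC and to CCAAT, which share 1 base in Psmb2.
Psma6: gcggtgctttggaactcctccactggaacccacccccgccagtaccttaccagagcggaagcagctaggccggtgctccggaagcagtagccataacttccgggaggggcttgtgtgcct
Psmb2: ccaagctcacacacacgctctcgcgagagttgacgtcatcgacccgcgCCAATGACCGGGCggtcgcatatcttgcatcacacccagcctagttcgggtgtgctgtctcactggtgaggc
Psmb2 held 1 match to each motif in these bases and Psma6 held none to either. The antioxidant core was found in 7 of 40 members (17.5%) and 12.1% of all promoters, and CCAAT in 21 of 40 (52.5%) and 37.5%.

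**Figure D3:**
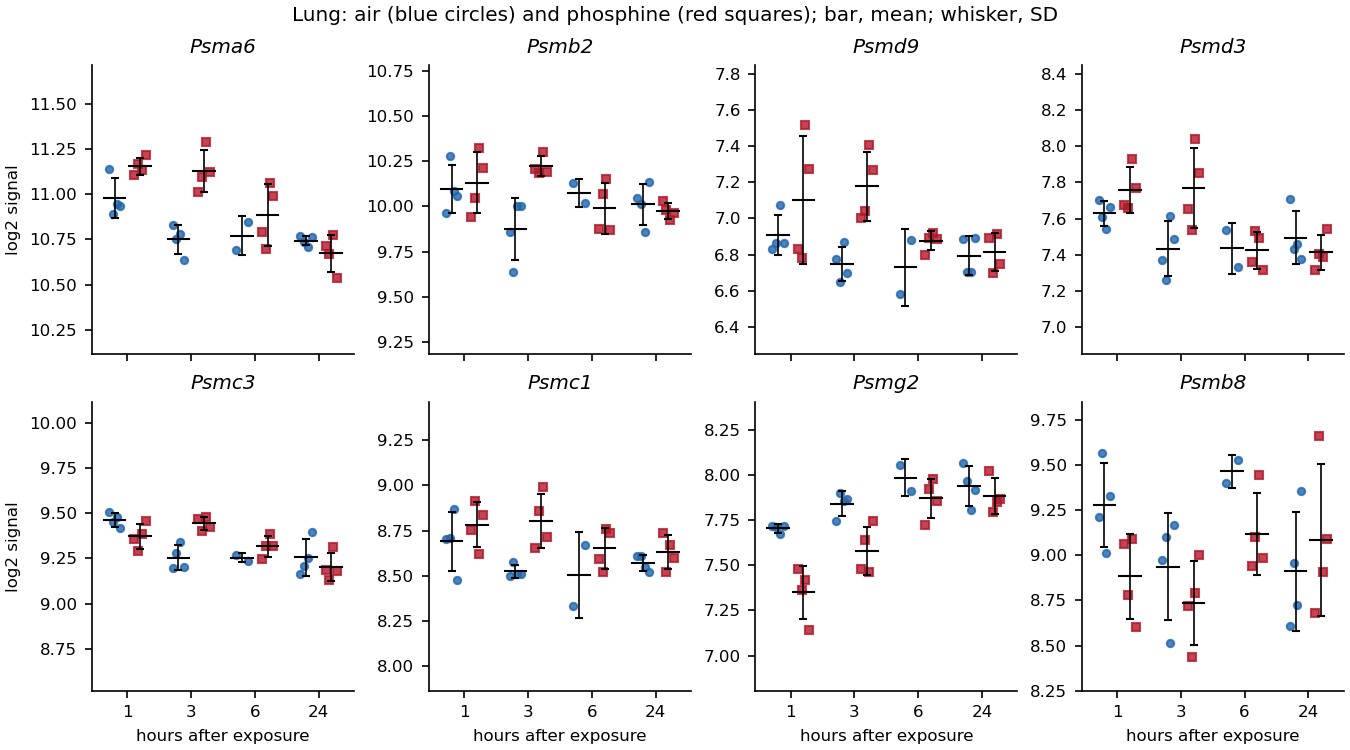
Log2 signal in lung (y axis, panels of equal span) by hours after exposure (x axis) for the 7 genes called at 3 h and Psmb8; blue circles are air rats and red squares phosphine rats. At 3 h the 4 exposed values of Psma6 (11.01 to 11.29) lie above the 4 air values (10.64 to 10.83), and at 24 h the groups mix.

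At 1 h in lung limma called 1 of 44 members (2.27%, against 5.8% of all genes), with 9 at an unadjusted p under 0.05 (20.5%, against 18.2%). Psmg2 was 7.48, 7.36, 7.42 and 7.14 in exposed and 7.72, 7.71, 7.67 and 7.72 in air lungs, a fall by 0.35 ± 0.08 (padj = 0.0069). The air values lay close together and above all exposed values. The call held in 13 of 14 alternatives and was lost with only the 2 groups in the fit (padj = 0.116), and 2 members were called without air Rat721. Psmg2 changed by -0.12 ± 0.10 at 6 h and -0.06 ± 0.08 at 24 h, neither called. Psma6 was 0.18 ± 0.08 (padj = 0.23) at 1 h, 0.12 ± 0.10 (padj = 0.812) at 6 h and -0.07 ± 0.08 (padj = 1) at 24 h. Limma called 0 members at 6 h (0.0967% of all genes) and 0 at 24 h (0.00744%), with 2 and 0 members at an unadjusted p under 0.05 (8.8% and 3.16% of all genes). The test of a difference between the 4 times did not pass for Psma6 (moderated F, padj = 0.0658) or any other member, with 6.38% of all genes called. At an unadjusted p under 0.05 stood 6 members (13.6%, against 21.0% of all genes), and 1 member passed the adjusted test when exposed Rat760 or Rat761 was left out. In lung at 6 h Psma3 (0.28 ± 0.13, padj = 0.527) and Psmd11 (0.17 ± 0.08, padj = 0.555), and at 24 h Psmd8 (-0.12 ± 0.08, padj = 1) and Psmg4 (-0.14 ± 0.09, padj = 1), had the largest moderated t. With only 2 air rats at 6 h, Psma3 was 0.08 without Rat762 and 0.49 without Rat763, and Psmd11 0.08 and 0.26.

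In liver at 3 h limma called 1 of 44 members (2.27%), against 3.85% of all genes, with 4 members at an unadjusted p under 0.05 (9.09%, against 15.6%). It was Psmd5, a chaperone that binds ATPase subunits during assembly of the 19S base and is not part of the finished particle. Its signal was 8.45, 8.55, 8.48 and 8.22 in exposed and 8.88, 8.80, 8.84 and 8.77 in air livers. All exposed livers lay below all air livers, a fall by 0.40 ± 0.09 (95% interval -0.59 to -0.21, padj = 0.012). It was called in 11 of 14 alternatives, with padj = 0.0567 without exposed Rat731, 0.0715 with array median centring and 0.0914 with only the 2 groups in the fit. At 1 h the value was -0.34 ± 0.09 and did not pass (padj = 0.155), and at 6 and 24 h it was -0.08 and -0.04. Psma3 was 0.51 ± 0.16 at 3 h (padj = 0.0715), which passed in 4 of 14 alternatives, among them both scalings and the fit without exposed Rat730 (padj = 0.047). With array median centring the 1 liver call was thus Psma3, higher, in place of Psmd5.

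The change of Psmd5 at 3 h differed between the 5 solid tissues (moderated F, padj = 4.4e-04), being 0.10 ± 0.07 in brain, 0.16 ± 0.09 in heart, 0.08 ± 0.09 in kidney, -0.02 ± 0.08 in lung and -0.40 ± 0.09 in liver. It passed under every setting and left-out rat run for this test, with padj up to 0.0072. At 3 h 3 of 44 members passed the test between tissues (14.4% of all genes did). The lid subunit Psmd8 was 0.22 in heart, 0.18 in lung, 0.14 in brain, 0.02 in kidney and -0.11 in liver (padj = 0.0218). The ATPase Psmc3 was 0.19 ± 0.06 in lung, 0.06 in kidney, 0.03 in heart, 0.02 in brain and -0.12 in liver (padj = 0.049). Psmd8 (padj = 0.0655 and 0.33) and Psmc3 (padj = 0.203 and 0.43) lost the call with quantile normalization within tissue and with array median centring. With the rat as a replicate block 5 members passed, adding Psmb2 (padj = 0.0451, 0.053 without the block) and Psmf1 (padj = 0.0477, 0.0569 without the block). The number was 1 without Rat732 or Rat733 (both air), and 5 without exposed Rat728 or air Rat738. At 1, 6 and 24 h limma passed 0 members (3.27%, 1.35% and 0.625% of all genes), with 3, 3 and 4 members at an unadjusted p under 0.05 (13.8%, 10.8% and 8.66% of all genes).

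**Figure D4:**
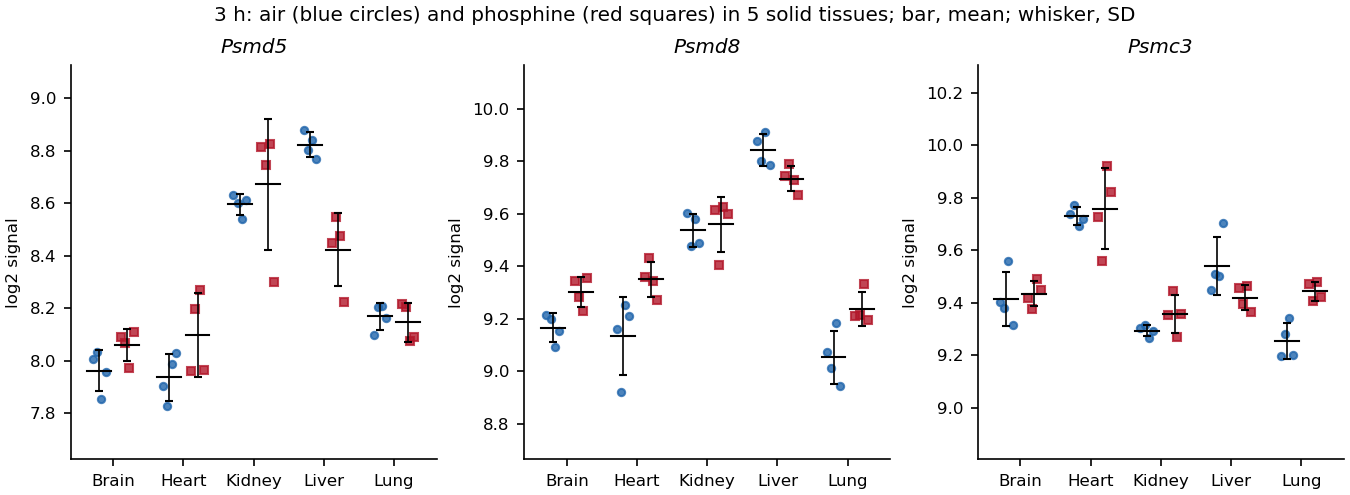
Log2 signal of Psmd5, Psmd8 and Psmc3 (y axis) at 3 h in the 5 solid tissues (x axis); blue circles are air rats and red squares phosphine rats. For Psmd5 the 4 exposed livers (8.22 to 8.55) lie below the 4 air livers (8.77 to 8.88), and the other tissues show no such gap.

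Psma6, which rose in lung, was at 3 h 0.19 ± 0.06 in kidney (padj = 0.0563), 0.16 in heart, 0.13 in brain and 0.07 in liver. In kidney limma called 0 members at 1, 3, 6 and 24 h (3.12%, 6.39%, 0.35% and 0% of all genes), with 4, 4, 6 and 1 members at an unadjusted p under 0.05 (17.4%, 19.6%, 10.1% and 5.5% of all genes). The 6 members at 6 h were all higher (13.6%, against 5.57% of all genes higher at that p). With 2 air rats at 6 h, the groups did not overlap for 18 members (40.9%, against 24.4% of all genes). Of the members 28 were higher then (63.6%, against 52.5% of all genes). Psma6 passed at 3 h without air Rat739 (padj = 0.0371), and Psmd10 at 1 h without exposed Rat710 (0.32, padj = 0.0454, against 0.25 ± 0.09 and padj = 0.152 with it). The inhibitor Psmf1 was -0.19 ± 0.06 at 1 h (padj = 0.0978), Psmc1 0.18 ± 0.07 at 3 h (padj = 0.162), and at 6 h Psmd1 0.23 ± 0.07 (padj = 0.21) and Psmd9 0.31 ± 0.10 (padj = 0.22). At 24 h the 20S chaperone Psmg1 was 0.13 ± 0.06 (padj = 0.887) and Psmd12 0.19 ± 0.09 (padj = 0.903).

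In heart limma called 0 members at 1, 3, 6 and 24 h (1.33%, 3.33%, 0.35% and 0.0819% of all genes), with 2, 3, 2 and 3 members at an unadjusted p under 0.05 (10.9%, 18%, 9.37% and 7.61% of all genes). At 1 h Psmd10, a base chaperone also known as gankyrin, was -0.27 ± 0.11 (padj = 0.292) and Psmd11 -0.18 ± 0.08 (padj = 0.355). At 3 h Psmd8 was 0.22 ± 0.08 (padj = 0.138) and Psma3 0.26 ± 0.12 (padj = 0.241), and Psma3 passed without exposed Rat731 (0.41, padj = 0.035). At 6 h Psmd11 was -0.32 ± 0.09 (padj = 0.146) and Psmd5 0.31 ± 0.11 (padj = 0.299), and at 24 h Psmd1, the large scaffold of the base, was -0.37 ± 0.10 (padj = 0.2) and Psmc5 -0.26 ± 0.08 (padj = 0.354).

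In brain limma called 0 members at 1, 3, 6 and 24 h (0.149%, 0.506%, 0% and 0% of all genes), with 5, 0, 0 and 0 members at an unadjusted p under 0.05 (11%, 8.65%, 5.64% and 3.79% of all genes). Still, 34 of 44 members were higher at 3 h (77.3%, against 48.8% of all genes), with a median of 0.06 against -0.004. At 24 h 14 of 44 were higher (31.8%, against 48.9% of all genes). The largest moderated t values were those of Psmd3 (0.28 ± 0.10, padj = 0.283) and Psmd10 (-0.23 ± 0.09, padj = 0.338) at 1 h and Psmc5 (0.20 ± 0.11, padj = 0.623) and Psmd8 (0.14 ± 0.08, padj = 0.63) at 3 h. The value of Psmc5 was 0.03 without air Rat738. At 6 h they were those of Psmb2 (0.22 ± 0.11, padj = 0.91) and Psme4 (0.27 ± 0.18, padj = 0.96), and at 24 h of Psmd3 (0.16 ± 0.10, padj = 1) and Psme1 (-0.13 ± 0.09, padj = 1). In liver limma called 0 members at 1, 6 and 24 h (0.335%, 0.223% and 0% of all genes), with 2, 4 and 3 members at an unadjusted p under 0.05 (6.76%, 9.21% and 7.14% of all genes). There Psma3 was 0.39 ± 0.16 at 1 h (padj = 0.547), Psmd9 0.54 ± 0.17 (padj = 0.235) and Psmd10 -0.49 ± 0.18 (padj = 0.376) at 6 h, and Psma2 0.21 ± 0.08 (padj = 0.634) and Psmc3ip 0.42 ± 0.16 (padj = 0.634) at 24 h. Limma called 0 members different between times in brain, heart, kidney and liver (0.0893%, 0.424%, 1.75% and 0.476% of all genes), with 0, 2, 2 and 1 members at an unadjusted p under 0.05 (8.95%, 11.0%, 16.8% and 10.2% of all genes).

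Limma called the immunoproteasome subunits in 0 of 23 comparisons, with an unadjusted p under 0.05 in 2 for Psmb8, 2 for Psmb9 and 1 for Psmb10, but the intervals of Psmb8 and Psmb9 were wider than those of the other members. Only 8 of the 20 solid-tissue intervals of Psmb8 and 7 of those of Psmb9 lay within 1.5-fold. At 24 h in heart the change was 0.48 ± 0.25 for Psmb8 (padj = 0.70) and 0.43 ± 0.24 for Psmb9 (padj = 0.72), and without exposed Rat742 it was 0.40 for Psmb8 and 0.16 for Psmb9. Psmb9 in that heart was 9.13, against 7.74 to 8.44 in the other 3 exposed hearts and 7.72 to 8.14 in the air hearts. Of the other 3 exposed hearts, that of Rat741 carried hepatocyte markers and held the highest Psmb8 (8.11) and the 8.44 of Psmb9. That of Rat749 carried lung epithelium markers, and the part of other organs in these values was not tested. In lung at 1 h the changes of Psmb8 and Psmb9 were -0.40 ± 0.19 (padj = 0.271) and -0.36 ± 0.21 (padj = 0.39), and Psmb9 in kidney at 6 h was -0.47 ± 0.27 (padj = 0.615). Psmb10 had narrower intervals, 19 of 20 within 1.5-fold, with values from -0.14 to 0.19 in the solid tissues. All 20 intervals of Psme1 lay within 1.5-fold, and its value was below 0 in 22 of 23 comparisons without passing in any. All 20 of Psmf1 and 19 of 20 of Psme4 did so too.

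In blood at 3 h limma called 2 of 44 members (4.55%), both lower, against 6.6% of all genes (5.8% lower), but the shift ran through most of the list. Of the 44 members 37 were lower. Higher in mean signal were 15.9% of the members, against 44.9% of all genes. The members' median was -0.59, against -0.07 for all genes and -0.30 for genes at or above the 40th percentile of signal in blood. At an unadjusted p under 0.05 stood 22, all lower (50%, against 22.4% of all genes in either direction and 17.1% lower), and the groups did not overlap for 14 (31.8%, against 14.8%). Psma5, an alpha subunit, was 7.34, 6.71, 6.38 and 6.87 in exposed and 7.999, 7.77, 8.11 and 8.23 in air rats, a fall by 1.20 ± 0.32 (padj = 0.027). The alpha subunit Psma4 was 6.31, 5.91, 6.40 and 7.27 in exposed and 7.86, 7.30, 7.61 and 7.71 in air rats, a fall by 1.15 ± 0.30 (padj = 0.027). In both genes every exposed rat lay below every air rat. At 24 h, with no air rat, the 2 exposed rats had 7.83 and 7.90 for Psma5 and 7.95 and 7.97 for Psma4.

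The median change in blood at 3 h was -0.91 for the alpha subunits, -0.94 for the 20S chaperones, -0.63 for the immunoproteasome, -0.59 for the constitutive beta subunits, -0.42 for the non-ATPase subunits and -0.30 for the ATPases. Psmg1 (-1.43 ± 0.46, padj = 0.0598) and Psmb9 (-0.92 ± 0.29, padj = 0.0597) did not pass. The 7 members not lower in mean signal were Psma6 (0.06), Psmf1 (0.07), Psme4 (0.43), Psmd13 (0.37), Psmd4, Psmd8 and Psmd9, and none of them passed.

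The white cell markers and the brightness of the arrays moved with this shift. The mean of the 5 leukocyte markers was 8.60 to 9.81 in exposed and 10.17 to 10.42 in air rats, with Cd53, Ptprc and Cd48 called lower. All 3 measured B cell markers (Bank1, Ms4a1, Cd79b) were also called lower. Of the 8 T and NK cell markers only Cd3g was called, also lower, and none of the 5 neutrophil markers was called. The 75th percentile of the array's log2 signals was 6.12 to 6.36 against 6.68 to 6.86. With the leukocyte mean as a covariate the members' median was -0.11, and with the 75th percentile -0.04, and limma then called 0 members and 0 of all genes. Both covariates were chosen after seeing the data, and each was separated between exposed and air rats, so that exposure, white cells and array brightness cannot be told apart here. Quantile normalization within the tissue gave a median of -0.20 and 0 calls. Leaving out dim genes gave 10 calls, where the median over all genes left was itself -0.30. The share of all genes called in that setting is not given here. Leaving out 1 rat gave 0 calls (exposed Rat729, and air Rat732, Rat738 and Rat739), 1 call (Rat730), 4 (Rat731 and Rat733) or 5 (Rat728).

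**Figure D5:**
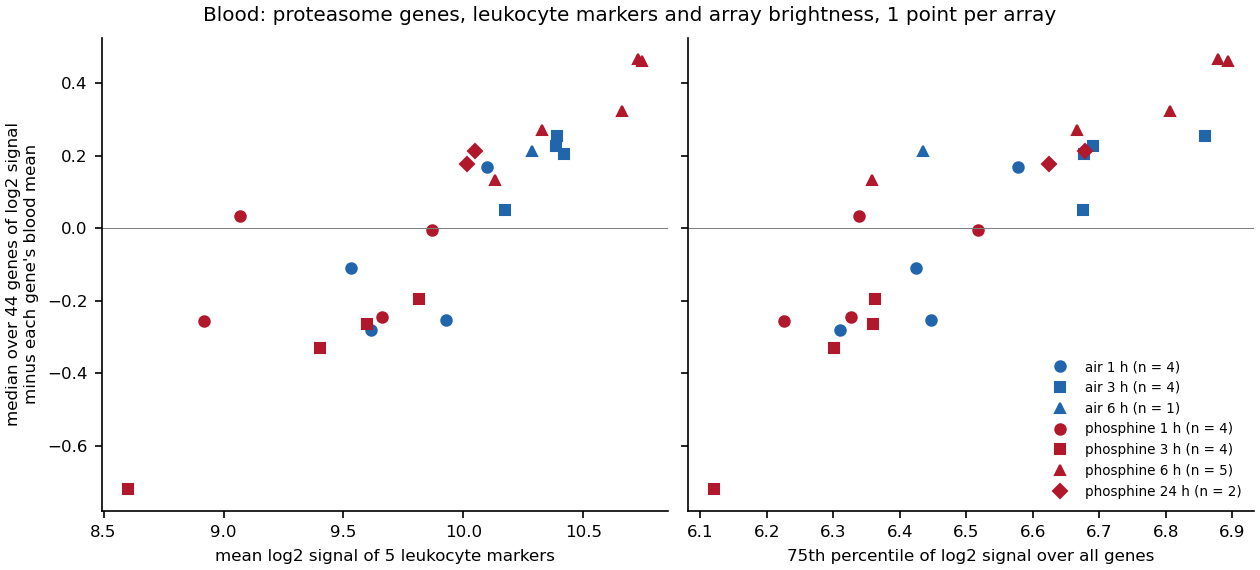
For the 24 blood arrays with exposed and air rats marked, the y axis gives the median over the 44 genes of the deviation from the gene's blood mean (log2), against the mean of the 5 leukocyte markers (left) and the array's 75th percentile (right). The exposed arrays at 3 h sit low on both axes, with deviations from -0.72 to -0.19 against 0.05 to 0.25 in air rats of that time.

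In blood at 1 h limma called 0 members (0.00744% of all genes), with 4 members at an unadjusted p under 0.05 (7.72% of all genes). Psmd6, a lid subunit, was -1.09 ± 0.37 (padj = 0.432), or -0.60 without exposed Rat713, and Psme4 0.78 ± 0.34 (padj = 0.579). At 6 h, with 1 air array, 0 members were called by limma (0.0521% of all genes), with 2 members at an unadjusted p under 0.05 (10.2% of all genes). Of the members 33 of 44 were above that array (75%, against 55.4% of all genes), and the median was 0.18, against 0.08 for all genes. Psmd14, the deubiquitinase of the lid, was 1.93 ± 0.58 (padj = 0.199) and Psme4 1.90 ± 0.52 (padj = 0.144). With quantile normalization the median at 6 h was -0.09, so its sign rests on the scaling. Limma called 0 members different between the 3 times (0.268% of all genes), with 8 at an unadjusted p under 0.05 (18.2%, against 15.4% of all genes) and 1 called when exposed Rat789 was left out.

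Genes around the proteasome were read from lists of assembly factors and receptors (15 of 19 measured), control genes (7 of 7), ubiquitin and its activation (8 of 13), the p97 segregase (11 of 12) and antigen processing and interferon (10 of 14). Over all 23 comparisons they gave 16 calls in 1173 pairs of a gene and a comparison (1.36%), against 1.92% over all genes. In lung at 3 h Nfe2l1, the activator of proteasome genes, rose by 0.62 ± 0.14 (padj = 0.0047) and Akirin2, which carries proteasomes into the nucleus, by 0.45 ± 0.11 (padj = 0.0062), and Uba6, a ubiquitin-activating enzyme, fell by 0.44 ± 0.11 (padj = 0.0082). In kidney at 3 h Akirin2 (0.42 ± 0.09, padj = 0.0045), the proteasome-binding stress gene Zfand2a (0.56 ± 0.13, padj = 0.0066), the ubiquitin-conjugating enzyme Ube2n (0.35 ± 0.09, padj = 0.0249) and the p97 adaptor Nploc4 (0.28 ± 0.07, padj = 0.0133) rose, beside 0 called subunits.

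In liver Nfe2l2, the antioxidant response factor, fell by 0.82 ± 0.16 at 1 h (padj = 0.0136) and by 1.00 ± 0.16 at 3 h (padj = 3.6e-04). In heart at 3 h Zfand2a rose by 0.51 ± 0.13 (padj = 0.0302), while Keap1, the ubiquitin ligase adaptor of Nfe2l2, fell by 0.26 ± 0.07 (padj = 0.0441). In kidney at 1 h Zfand5, which activates the proteasome in wasting muscle, rose by 0.50 ± 0.14 (padj = 0.0463) and Ifit3, an interferon-induced gene, by 0.64 ± 0.17 (padj = 0.0413). In blood at 3 h, under the limits given above, Ngly1, which processes Nfe2l1, fell by 1.99 ± 0.48 (padj = 0.0194), and the conjugating enzymes Ube2d2 by 2.23 ± 0.47 (padj = 0.0109) and Ube2d1 by 1.78 ± 0.51 (padj = 0.0377). No list member was called in brain, in lung at 1, 6 or 24 h, or in any tissue at 6 or 24 h, and Ifit3 was the only call from the antigen processing and interferon list.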

How the data were processed

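Expression of proteasome genes was read from 174 arrays of 33 rats. As deposited, each probe set has a log2 signal, which the authors made with RMA and Partek per the submitters' processing notes, and whether tissues were normalized together is not given in the sources used here. RMA forces similar distributions on the arrays, so a shift common to most genes of an array is partly removed. Signals lie between 1.74 and 14.13. The 31139 probe sets include 97 controls, and GEO's platform annotation lists 1 gene for 19063, several for 572 and none for 11407. The number of arrays limits the precision.

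A linear model with 1 mean for each exposure and time was fitted per tissue to all genes and arrays, with limma (version 3.58.1) under R (version 4.3.3), and tables were read with data.table (version 1.17.8). Phosphine was set against air at each time with eBayes, and p-values were adjusted over 13438 genes. Differences of the effect between times or tissues, and air levels between tissues, were tested with limma's moderated F. The spread shared over all groups of a tissue let the 6 h comparisons with 2 air rats, or 1 in blood, be tested. The fit was tested on simulated data. The 1.5-fold bound is 0.58 on the log2 scale. Motifs were searched on both strands, and figures were drawn with Python 3.11.15, matplotlib 3.10.9 and pandas 2.3.3.

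The alternatives tried were array median centring, quantile normalization within tissue, the mean of a gene's probe sets, leaving out genes under the 40th percentile, only the 2 groups in the fit, leaving out arrays with another organ's markers, the rat as a block and leaving out each rat. Added after seeing the data were the leukocyte mean and the array's 75th percentile as covariates in blood, air levels without arrays of another organ's markers, and co-variation of the immunoproteasome subunits without Rat742. The labels give the same rat number to the 5 solid tissues of an animal, and the deviations of 2 tissues of a rat correlated with medians of 0.04 to 0.12 (lowest -0.33), with a consensus correlation of 0.03.

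The members and lists were chosen with earlier results of these data known. Named were all called members of a comparison, or else the 2 with the largest moderated t, the 3 largest called changes by sample, up to 5 members per test of a difference, and in air the immunoproteasome, activator and 2 most variable members of each other role. Up to 4 called genes per pathway list and comparison were named. The 2 blood samples at 24 h are given as values. Protein sequences were not used here.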

Additional observations from a re-analysis of the deposited data

Results flagged for a closer look

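The change at 3 h differed between the 5 solid tissues for Psmd5 (limma's moderated F, padj = 4.4e-04), Psmd8 (padj = 0.0218) and Psmc3 (padj = 0.049). The values of each tissue are given with the results above, where Psmd8 and Psmc3 also lost the call under both other scalings.

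A single sample stood apart from the other 3 of its group in 4 of the 86 groups looked at. With independent groups, 1 in 20 would give 4.3. The groups were of the members' median, of called genes, and of the immunoproteasome subunits at 24 h in heart, kidney, liver and lung. The subunits at 24 h were included because their values by rat are printed above. As the groups were chosen in this way and share arrays, 4.3 is only a rough guide. The members' median deviation from the gene's tissue mean was 0.0329 in the air kidney of Rat721 at 1 h, against -0.0328 to -0.0237 in the other air kidneys of that time. The log2 signal of Psmc1 was 8.58 in the air lung of Rat733 at 3 h, against 8.50 to 8.51 in the other air lungs of that time. That lung also carried hepatocyte and skeletal muscle markers, and their part in the value was not tested. Psmb9 of exposed Rat742 at 24 h was 9.93 in liver, against 8.91 to 8.95 in the other exposed livers, and 10.45 in lung, against 8.89 to 9.01.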

How the results depend on the processing

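Arrays of 4 rats per group limit the precision, and most calls rest near the threshold. Of 34 counts of members called, 22 were 0 under every setting run and 12 were not. With array median centring the members' median was -0.0659 in heart at 1 h, 0.0652 at 6 h and -0.0993 at 24 h, and in liver 0.0189 at 3 h and 0.0845 at 6 h, against -0.0104, -0.0117, -0.0223, -0.0321 and 0.00652. Without arrays of another organ's markers the lung median at 1 h was -0.0711, against -0.0246. In blood at 3 h it was -0.199 with quantile normalization, -0.0386 with the 75th percentile and -0.107 with the leukocyte mean as covariate, and at 6 h -0.0928 with quantile normalization and -0.102 with the 75th percentile, against -0.593 and 0.184. The count in kidney at 3 h was 2 with the mean of probe sets and 1 without dim genes (0 reported), in liver at 3 h 2 with quantile normalization, 2 without dim genes and 0 with only the 2 groups (1 reported), and in lung at 1 h 0 with only the 2 groups (1 reported). In lung at 3 h it was 2 with only the 2 groups and 3 without arrays of another organ's markers (7 reported), and in blood at 3 h 10 without dim genes and 0 with quantile normalization or either covariate (2 reported). Between tissues at 1 h 1 member passed with quantile normalization or median centring (0 reported). In the paired analysis, with the rat as a replicate block, the count between tissues at 3 h was 5 against 3, and the block changed no other count by over 1.5 times: 0 at 1, 6 and 24 h and 44 for air levels. Leaving out each rat gave counts of 0 to 1 in heart at 3 h, kidney at 1 h and kidney at 3 h, 0 to 2 in liver at 3 h, 1 to 2 in lung at 1 h, 1 to 7 in lung at 3 h and 0 to 5 in blood at 3 h, and 0 to 1 between times in lung and blood and between tissues at 1 h (1 without Rat710), and 1 to 5 between tissues at 3 h. The lung median at 1 h then ran from -0.0711 to -0.0176. Psmd11 in heart at 6 h turned from -0.32 to 0.0061 with the mean of its probe sets, and Psme4 in brain at 6 h from 0.27 to -0.0028 without Rat763 (up to 0.547 without Rat762). The cause was not tested.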
